A study of Rattus norvegicus with 4 samples.

Results

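Heat shock proteins and chaperones were followed across the cell classes of rat dorsal root ganglia, which hold the cell bodies of the sensory neurons of body and limbs. The set was 32 genes chosen by symbol, and 31 of them had a row among the 25629 features of the count files, while St13 had none. The series compared wild-type naive male SD rats labelled Sham with rats of the CPIP model, a name the field uses for chronic post-ischaemia pain, and the sources used here give neither ages nor the time after the procedure. Each group had 2 libraries, and each library pooled ipsilateral L4-L6 ganglia of 3 rats, so that differences between single animals cannot be seen. The ganglia of both groups were digested with dispase, collagenase and DNase for 50 min and with papain for 10 min, at 37 °C, before single cells were captured on BD Rhapsody beads that tag each cDNA with the barcode of its cell and a molecular identifier (UMI).

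Chaperones bind unfolded or partly folded proteins and help them to fold, to be transported or to be degraded. Hsp70 proteins cycle on and off their clients with the help of J-domain proteins and nucleotide exchange factors, Hsp90 proteins finish the folding of kinases and steroid receptors with their own co-chaperones, and small heat shock proteins hold unfolded proteins without using ATP. Heat shock factor 1 switches on the cytosolic members when unfolded proteins build up, and the unfolded protein response does the same for members of the endoplasmic reticulum. In sensory neurons, whose axons are very long, mutations in small heat shock proteins are a known cause of inherited neuropathy.

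Some promoters of the members carry the DNA elements of these 2 responses, and the windows that hold them are shown, except that of Chordc1. Most of the genes with an element differed between neurons and satellite glia in the levels described further on, while Dnaja1 overlapped. So did most of the set: neurons were above satellite glia in every library for 18 of the 31 members and below for 10. Of the 20536 genes with a UMI, 36.4% were above and 25.1% below. Of the 8300 genes with higher mean levels, defined further on, 44.4% were above and 41.1% below. A difference between these 2 classes was thus common among all genes. A link between the elements and the levels was not tested. RefSeq promoters (build GRCr8, 250 bases before to 50 after the start) were found for 25 of the 31 members, and both strands were searched. No promoter was found for Hspa1b, Hsp90aa1, Cryab, Dnaja2, Dnajb4 and Hsf1, so these were not searched. The heat shock element was searched as 3 alternating units of GAA and TTC, starting with either, each pair of units parted by NN, so that matches can overlap. The ER stress element was searched as CCAAT and CCACG parted by 9 bases of any kind. The heat shock element was in 6 of the 25 member promoters and in 0.798% of all 33469 promoters of the table, and the ER stress element was in 3 of 25 and in 0.0657%. Capitals mark the match, with 8 bases on each side, written 5′ to 3′ along the strand of the gene. The ER stress element was found in Hspa5, Hsp90b1 (at 2 places) and Dnajc3.
Hspa5, chr3:38452965-38452999, plus strand: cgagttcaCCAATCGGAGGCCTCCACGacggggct
Hsp90b1, chr7:23012443-23012477, minus strand: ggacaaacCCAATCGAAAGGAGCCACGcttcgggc
Hsp90b1, chr7:23012339-23012373, minus strand: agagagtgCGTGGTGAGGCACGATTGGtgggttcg
Dnajc3, chr15:102432526-102432560, plus strand: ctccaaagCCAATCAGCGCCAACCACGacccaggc
The heat shock element was found in Hspa8 (at 2 places), Hsph1, Dnaja1, Chordc1 and in the stretch that Hspd1 and Hspe1 share. In Dnaja1 and Chordc1 it began at base 10 and base 11 of the 50 after the start, and the Chordc1 window is not shown.
Hspa8, chr8:50080293-50080321, plus strand: gcgagcgtGAAAGTTCCAGAAcgctgcgg
Hspa8, chr8:50080451-50080479, plus strand: cggaacccTTCTGGAAGGTTCtaagacag
Hsph1, chr12:10427324-10427352, plus strand: gccgcagaTTCTGGAAAGTTCtcctcagt
Dnaja1, chr5:60638405-60638433, plus strand: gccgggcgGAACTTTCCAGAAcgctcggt
Hspe1, chr9:64084254-64084287, plus strand: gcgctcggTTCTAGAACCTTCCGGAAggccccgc
The match in capitals begins 65 bases before the start of Hspe1 and, read on the other strand, 242 bases before the start of Hspd1, the pair that encodes the chaperonin and its lid. A match is a stretch of letters and was not tested as a site of binding.

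The libraries held 60885664 to 64550637 UMIs in 11829 to 12828 barcodes, with a median of 3531 to 4141.5 UMIs per barcode, and 10667 to 11691 cells per library were kept. Any 2 libraries shared 1 to 5 barcodes. Clusters were named by their likeness to marker lists, and 10 classes are described: neurons (2332 to 2946 cells per library), satellite glia (3193 to 3736), a glial cluster led by Hey2 and Sox10 that stayed unnamed (681 to 858), non-myelinating and myelinating Schwann cells, endothelial cells, pericytes, smooth muscle, fibroblasts and macrophages. The members took no part in the clustering. The 15 neuron markers summed to 21673 to 23885 CPM in neurons and 827 to 910 in satellite glia. Levels are CPM, the UMIs of a gene per 1000000 UMIs of its class in a library. CPM does not correct for gene length, so levels are compared between classes and not between genes.

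Neurons and glia held different parts of the set. In all 4 libraries neurons were above all 9 other classes for 13 of the 31 members (10.2% of the 20536 genes with a UMI did so, and 17.7% of the 8300 genes that averaged 10 CPM or more), and they were below all of them for 4 (4.38% and 10.8%). The 13 were the cytosolic Hsp70 and Hsp110 members Hspa8, Hspa4 and Hsph1, both cytosolic Hsp90 genes, mitochondrial Hspa9 and Hspe1, Hspb8, Dnaja2 and the co-chaperones Chordc1, Cacybp, Stip1 and Fkbp4. The 4 were Hspa5, Hspa13, Hsp90b1 and Dnajb4, of which the first 3 work in the endoplasmic reticulum. Against satellite glia alone, neurons were higher in every library for 18 members and lower for 10 (36.4% and 25.1% of the 20536 genes with a UMI), and Dnaja1, Hsf1 and Hspa1a overlapped. Of the 28 members that averaged 10 CPM or more, neurons were higher for 17 and lower for 10 (44.4% and 41.1% of the 8300 genes). Myelinating Schwann cells were above all other classes for Cryab (1.18% of genes) and smooth muscle for Bag3 (1.36%). No member was above all other classes in the glia led by Hey2 and Sox10 (0.954% of genes), non-myelinating Schwann cells (0.726%), endothelial cells (2.72%), pericytes (0.536%), fibroblasts (1.60%) or macrophages (4.26%). None was below all others in satellite glia (0.258%), non-myelinating (0.00487%) or myelinating Schwann cells (0.170%), endothelial cells (0.409%), pericytes (0.0146%), smooth muscle (0.234%), fibroblasts (0.136%) or macrophages (0.453%). The scale between classes depends on the denominator: the median of the 8300 genes was 0.09 on the log2 scale in neurons over satellite glia by CPM and -0.19 with TMM factors over all classes, and that of the 28 members among them was 0.49 and 0.21. Over 8 other settings neurons were highest for 12 to 14 members and lowest for 3 to 5.

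**Figure D1:**
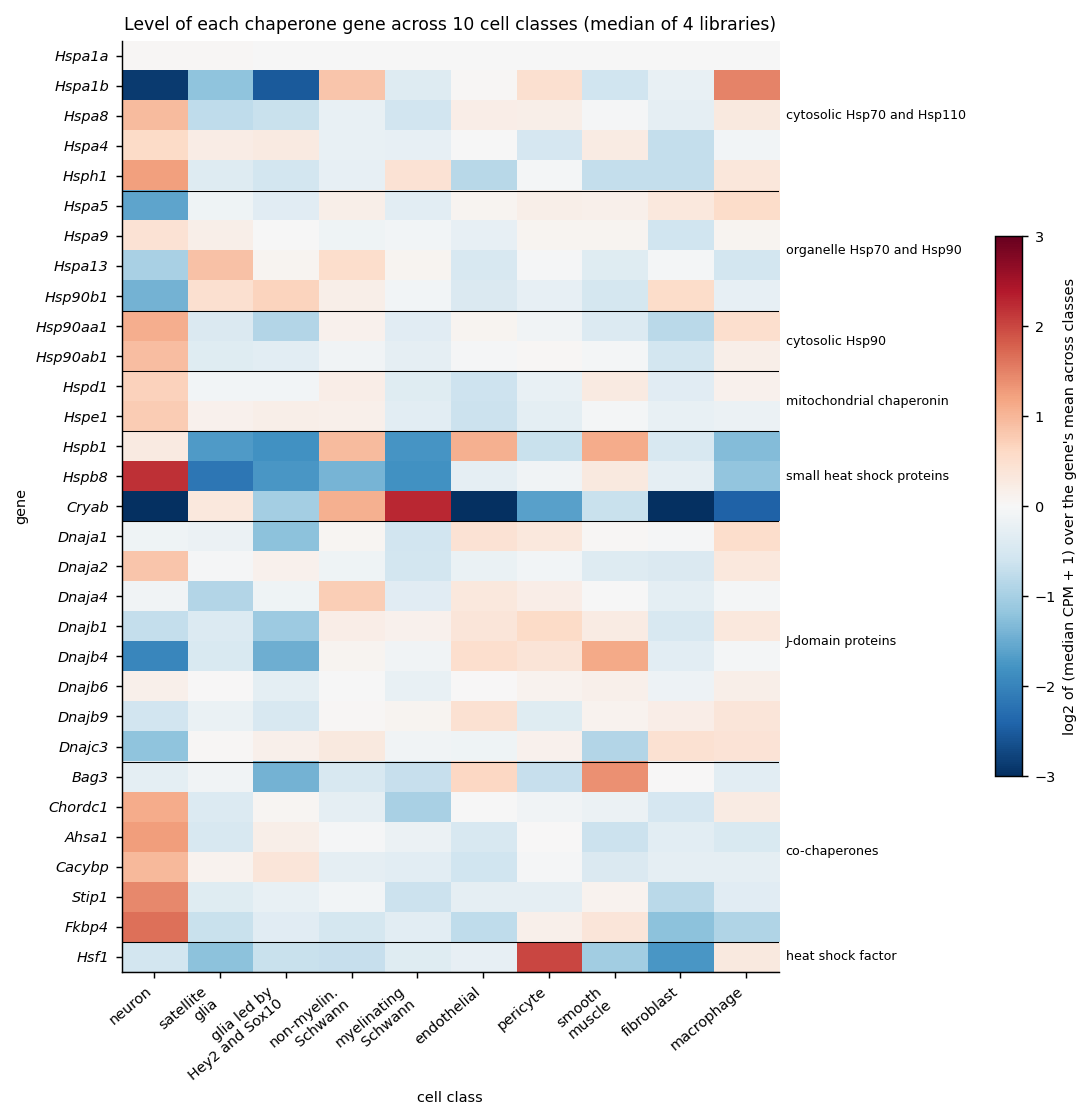
Colour gives the level of each member (rows) in the 10 cell classes (columns), as log2 of the median CPM over 4 libraries plus 1, relative to the member's mean over classes. Neurons are highest for 13 members in every library, myelinating Schwann cells for Cryab and smooth muscle for Bag3.

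Of the cytosolic Hsp70 genes, Hspa1b, the heat-inducible form, was low in neurons and high in macrophages and in Schwann and vessel cells. In neurons it measured 167 and 254 CPM in the Sham libraries and 242 and 233 in the CPIP libraries. In macrophages it measured 2945, 5857, 5014 and 4804 CPM in the same order, so that Sham 1 was the lowest in both classes, and the classes did not overlap. Macrophages were 20.4-fold above neurons (log2 4.35 ± 0.161, SD over 4 libraries). Non-myelinating Schwann cells, with 2914, 3239, 4068 and 3024 CPM, were 4.18-fold above satellite glia, which had 719, 787, 911 and 735 (log2 2.07 ± 0.0635). The lowest and highest of the 4 libraries were 1711 and 2343 CPM in endothelial cells and 2305 and 3334 in pericytes. Immediate early genes, which dissociation is known to induce, summed to 1652 to 2055 CPM in neurons, 18225 to 19178 in macrophages and 26812 to 30162 in non-myelinating Schwann cells (18 of 20 listed genes present, none at 0), and their part in the level of Hspa1b was not tested. Hspa1a, the near-identical copy of Hspa1b, had 11 UMIs in all barcodes against 164234 for Hspa1b. Reads of such copies can be assigned to either, so the 2 values describe the pair.

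The constitutive Hsp70, Hspa8, was highest in neurons, the class with the lowest median of Hspa1b. Neurons measured 1288, 1307, 1319 and 1354 CPM in Sham 1, Sham 2, CPIP 1 and CPIP 2, and macrophages, the class with the next highest median, lay between 759 and 912. Satellite glia had the lowest median, 400.7 CPM. Hsph1, an Hsp110 that exchanges the nucleotide of Hsp70, measured 685, 682, 661 and 664 CPM in neurons and 224, 204, 217 and 255 in satellite glia, a 3.00-fold difference (log2 1.59 ± 0.150). Hspa4, of the same family, had a narrower range, from a median of 128 CPM in fibroblasts to 315 in neurons.

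Chaperones of the endoplasmic reticulum were lower in neurons than in satellite glia. Hspa5, known as BiP, the main Hsp70 of this compartment, measured 391, 445, 468 and 387 CPM in neurons and 1045, 1192, 1117 and 1308 in satellite glia. The 2 classes did not overlap, and satellite glia were 2.76-fold higher (log2 1.46 ± 0.211). Macrophages had the highest median, 1853 CPM. Hspa13, an Hsp70-like protein of microsomes, was highest in satellite glia (592, 553, 570 and 576 CPM) and lowest in neurons (159, 155, 162 and 159), a 3.61-fold difference (log2 1.85 ± 0.0314). No other member was above the other classes in satellite glia in all libraries, where 0.579% of genes were. Hsp90b1, the Hsp90 of the endoplasmic reticulum, ranged from 206 to 241 CPM in neurons and from 827 to 969 in the glia led by Hey2 and Sox10. Mitochondrial Hspa9 differed less, between a median of 160 CPM in fibroblasts and 326 in neurons.

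Cytosolic Hsp90 was highest in neurons for both genes. Hsp90aa1, the inducible form, measured 3545, 3860, 3783 and 3526 CPM in neurons and 1164, 1336, 1297 and 1262 in satellite glia, with no overlap and a 2.91-fold difference (log2 1.54 ± 0.0511). Hsp90ab1, the constitutive form, ranged from 3657 to 3945 CPM in neurons and from 2267 to 2586 in macrophages, the next class. Their co-chaperones followed in neurons: Fkbp4, an immunophilin that binds Hsp90 and steroid receptors, measured 589, 557, 546 and 568 CPM against 113, 111, 105 and 120 in satellite glia, a 5.05-fold difference (log2 2.34 ± 0.0655). Stip1, which joins Hsp70 to Hsp90, had a median of 229 CPM in neurons and 90.1 in smooth muscle, the next class. Chordc1 and Cacybp had medians of 87.0 and 143 CPM in neurons. Ahsa1, which stimulates the ATPase of Hsp90, had its highest median in neurons (48.2 CPM), but 1 pericyte library reached 55.3. The chaperonin genes Hspd1 and Hspe1 had medians of 120 and 362 CPM in neurons, and the lowest medians of both were in endothelial cells.

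**Figure D2:**
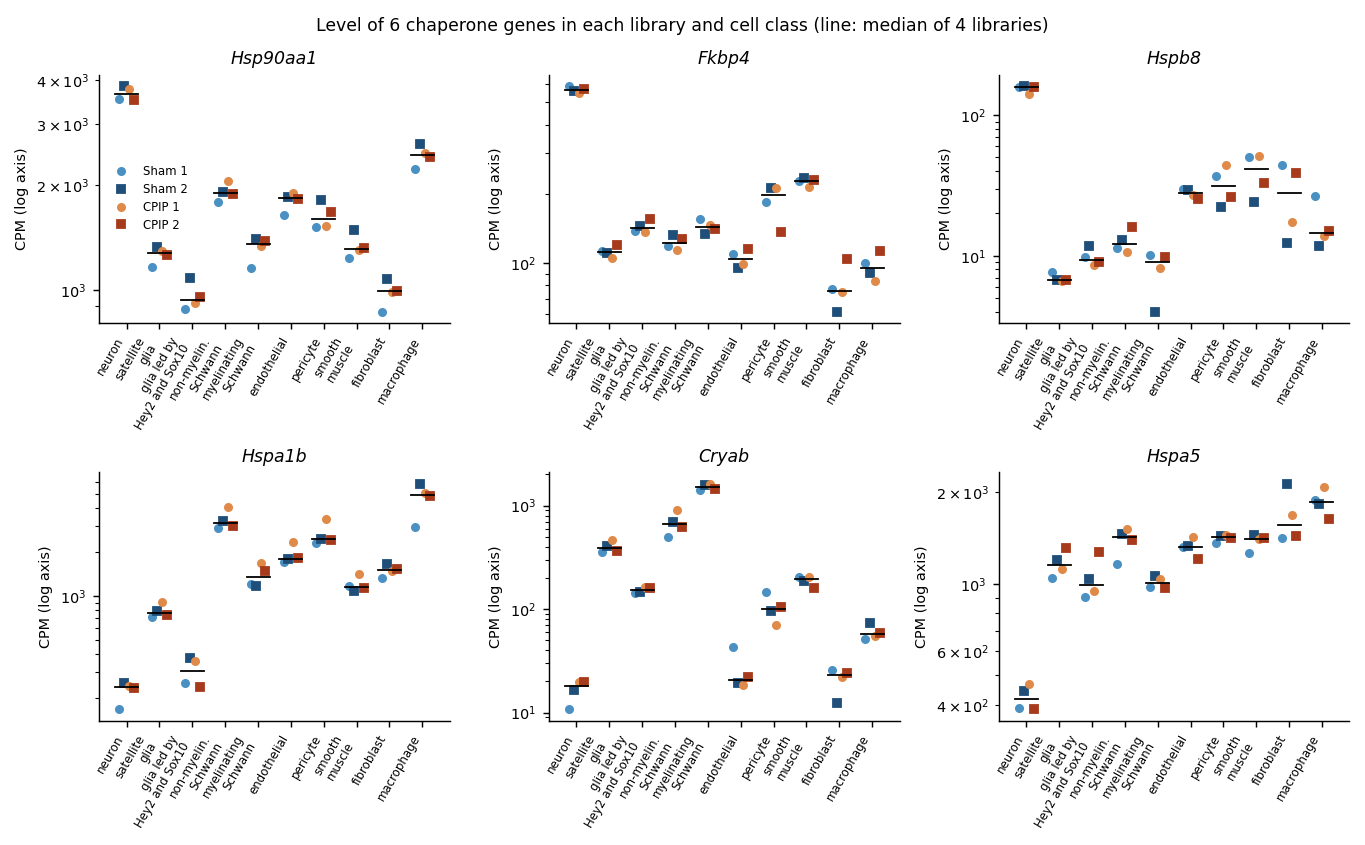
CPM (log axis) of Hsp90aa1, Fkbp4, Hspb8, Hspa1b, Cryab and Hspa5 in the 10 cell classes, with 1 point per library and a line at the median of the 4. Points of 1 class lie close together compared with the distance between far classes, for example 10.7 to 19.7 CPM for Cryab in neurons and 1413 to 1631 in myelinating Schwann cells.

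The small heat shock proteins differed in where they were high. Cryab, alpha-B crystallin, measured 1413, 1584, 1631 and 1433 CPM in myelinating Schwann cells and 10.7, 16.4, 19.7 and 19.7 in neurons, a 93.6-fold difference (log2 6.55 ± 0.368). Non-myelinating Schwann cells (median 657 CPM) and satellite glia (387) lay between them. Among glial clusters the median was 308 CPM in the satellite cluster led by Cdh19 and Ednrb, 256 in that led by Spp1 and Fbln2, and 154 in the cluster led by Hey2 and Sox10. Hspb8, which works with Bag3 in selective autophagy, went the other way, with 158, 161, 142 and 159 CPM in neurons and 7.68, 6.72, 6.59 and 6.74 in satellite glia, a 22.4-fold difference (log2 4.49 ± 0.105). Hspb1, also called Hsp27, did not single out 1 class: medians were 146 CPM in smooth muscle, 141 in endothelial cells, 129 in non-myelinating Schwann cells and 80.3 in neurons, and these ranges overlapped in part. Endothelial cells were 7.38-fold above satellite glia for Hspb1 (log2 2.88 ± 0.540).

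After each cell was thinned to 1000 UMIs, a median of 71.0% of myelinating Schwann cells held a UMI of Cryab (83.0% unthinned), against 1.62% of neurons and 1.94% of endothelial cells. Hspb8 was found in 14.3% of thinned neurons (60.4% unthinned) and in 0.743% of satellite glia, and Hspb1 in 7.11% of neurons (30.8% unthinned) and 2.24% of satellite glia. Median depths were 5816.5 to 5995.5 UMIs in neurons, 5198 to 6147 in satellite glia and 1669 to 1847.5 in myelinating Schwann cells. Free RNA can add UMIs to any cell, and the lower share of each pair is the level such background could reach.

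Among J-domain proteins, which deliver clients to Hsp70, and the remaining co-chaperones the vessel cells and macrophages were often high. Dnaja1 had medians of 1151 CPM in macrophages and 1070 in endothelial cells and its lowest, 337, in the glia led by Hey2 and Sox10. Dnajb1, a partner of Hsp70 in the heat shock response, ranged from 52.4 CPM in the same glia to 170 in pericytes. Dnajb4 had medians of 4.50 CPM in neurons and 46.0 in smooth muscle. Dnaja2 was highest in neurons (203 CPM), Dnajb6 differed little between classes (214 to 300), and Dnajb9 and Dnajc3, both of the endoplasmic reticulum, had their lowest medians in neurons (161 and 10.2 CPM). Bag3, the exchange factor that pairs with Hspb8, measured 877, 1052, 925 and 996 CPM in smooth muscle and 294, 306, 303 and 306 in neurons, a 3.18-fold difference (log2 1.67 ± 0.0928). Bag3, Dnaja1 and Dnajb1 were below all other classes in the glia led by Hey2 and Sox10 in every library, as were 0.297% of genes. Hsf1 and Dnaja4 had low counts, with medians of 0.714 to 22.2 and 1.01 to 5.14 CPM, and no order of classes is read from them.

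Levels also differed between neuron subtypes. Neurons were clustered again into 14 sub-clusters with at least 20 cells in every library, and a name again means likeness to markers. Hspb1 measured 325, 240, 272 and 415 CPM in neurofilament-rich neurons led by Kcnv1 and 3.91, 2.57, 6.10 and 7.10 in non-peptidergic nociceptors led by Iapp, with no overlap and a 67.0-fold difference (log2 6.07 ± 0.486). The peptidergic nociceptors led by Gnb2 (median 281 CPM), the neurofilament-rich neurons led by S100a16 (211) and an unnamed cluster led by Ntng1 (181) overlapped with those led by Kcnv1. The peptidergic nociceptors led by Adcyap1 had a median of 113 CPM and the C low-threshold mechanoreceptors one of 130.

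Neurofilament-rich neurons led by Kcnv1 were above all other sub-clusters in every library for Bag3 (601 to 675 CPM), as were 0.166% of 19330 genes. Those led by S100a16 were so for Fkbp4 (1188 to 1327 CPM, 0.548% of genes). Proprioceptors, which sense muscle stretch, were so for Chordc1 (median 169 CPM), Hspa4 (398) and Stip1 (321), with 0.998% of genes. Hsph1 had its highest median in the neurons led by Kcnv1 (1213 CPM) and overlapped there with the Trpm8 cold neurons (1038).

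The smallest sub-cluster, non-peptidergic nociceptors led by Mrgprx3 (21 to 26 cells per library), stood apart for 3 of the chaperones of the endoplasmic reticulum. Hspa5 measured 1220, 1449, 1105 and 1110 CPM there and at most 604 in any library of the sub-cluster with the next median. Hsp90b1 (median 555 CPM) and Hspa13 (388) were also above all others in every library, as were 2.29% of genes. Dnajc3 had its highest median there (32.2 CPM) but overlapped with the next sub-cluster, and Dnajb9 had its lowest (108 CPM). For 11 members, among them Hspa8 (219 to 371 CPM), Stip1 and Fkbp4, the same cells were below all others, as were 4.90% of genes. Their median of 2187.5 UMIs per cell was the lowest of the 14 sub-clusters, and the part of depth in these values was not tested.

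**Figure D3:**
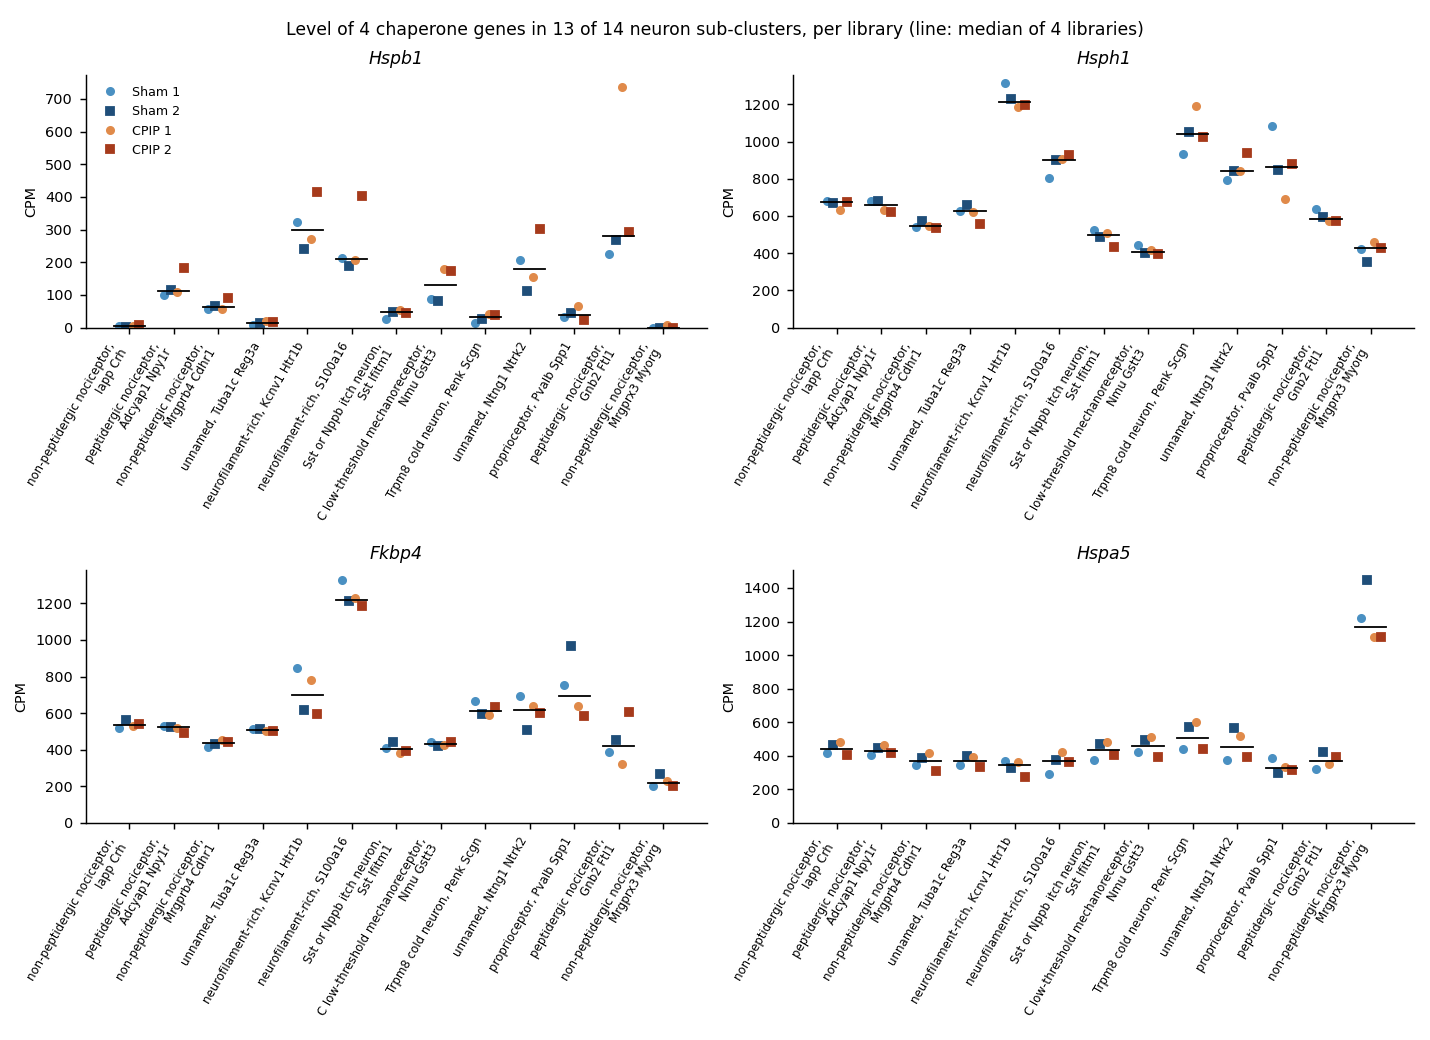
CPM of Hspb1, Hsph1, Fkbp4 and Hspa5 in 13 of the 14 neuron sub-clusters, with 1 point per library, a line at the median of the 4 and an axis that starts at 0. Hspb1 has a median of 298 CPM in the neurons led by Kcnv1 and 5.01 in those led by Iapp, and the sub-cluster led by Mrgprx3 stands above the others for Hspa5.

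Between CPIP and Sham no member passed the test in any of the 7 classes tested. UMIs were summed per library and class and compared as 2 against 2 pools with edgeR's quasi-likelihood test and Benjamini-Hochberg adjustment over all genes of the class. DESeq2 also called 0 members. Of all genes tested, 0% were called in satellite glia and in the glia led by Hey2 and Sox10, 0.00733% in neurons and 0.00995% in endothelial cells. The share was 0.0137% for non-myelinating Schwann cells, 0.0141% for myelinating ones and 0.0329% for macrophages. At an unadjusted p under 0.05, satellite glia had 1 of 30 members (3.30% of genes), neurons 2 of 30 (4.03%), the glia led by Hey2 and Sox10 1 of 28 (3.25%) and endothelial cells 1 of 30 (4.38%). Non-myelinating Schwann cells had 2 of 28 (4.90%), those with myelin 5 of 27 (5.39%) and macrophages 1 of 26 (4.46%). The median log2 change of the tested members lay between 0.03 and 0.11 in the 7 classes, and that of all tested genes between 0.00 and 0.01. A test of 2 pools against 2 that misses the threshold does not show that the groups were alike.

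Counted by library, both CPIP libraries lay above both Sham libraries for 8 members and below for 0 in satellite glia (16.1% and 16.6% of genes), for 6 and 1 in neurons (16.4% and 15.9%), for 7 and 3 in the glia led by Hey2 and Sox10 (14.7% and 16.5%) and for 9 and 4 in endothelial cells (16.0% and 16.8%). The counts were 5 and 1 in non-myelinating Schwann cells (16.4% and 17.5%), 8 and 2 in myelinating Schwann cells (17.5% and 16.5%) and 6 and 2 in macrophages (16.7% and 15.6%). Bag3 was among the higher ones in 5 of these classes. The classes come from the same libraries and are not separate observations, and the share of all genes that recur so was not counted.

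**Figure D4:**
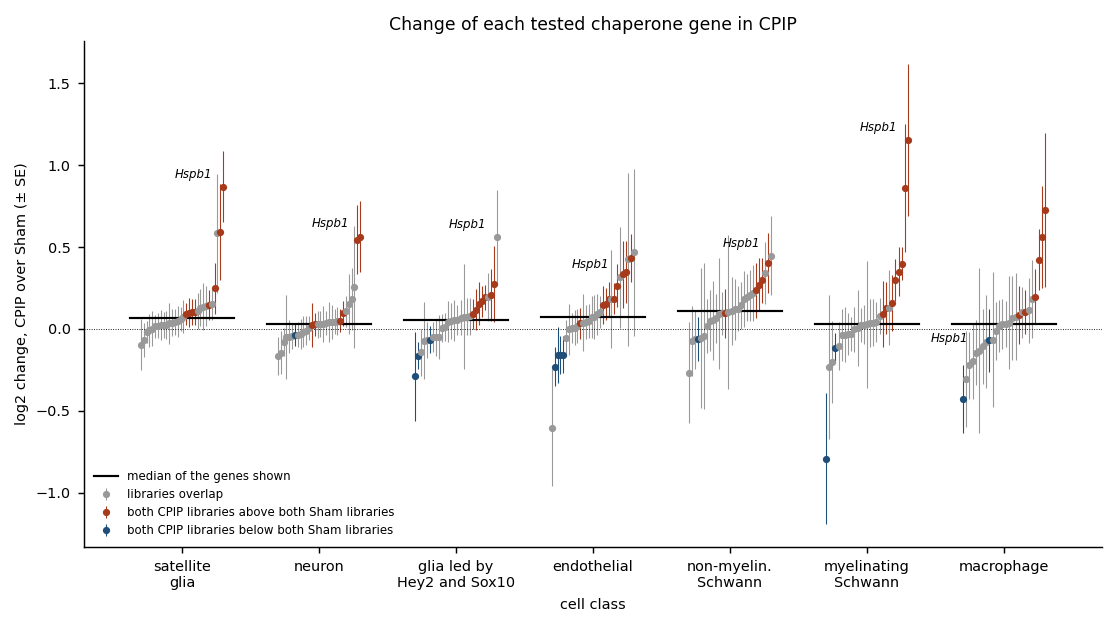
Log2 change in CPIP over Sham of each tested member (points, with the SE of the edgeR fit as bars) in the 7 classes tested, with a black line at the median of the members. Colour marks members whose CPIP libraries both lie above or both below the Sham libraries, and the medians lie between 0.03 and 0.11.

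Hspb1 was the member with the smallest or one of the 3 smallest p-values in 5 classes. In satellite glia it measured 13.4 and 17.2 CPM (scaled by TMM, as are all CPM in this comparison) in the Sham libraries and 22.9 and 33.1 in the CPIP libraries, so the groups did not overlap. The log2 change was 0.87 ± 0.216 (SE), with an adjusted p of 0.975 by edgeR's quasi-likelihood test with Benjamini-Hochberg adjustment. Markers of neurons, in which Hspb1 is higher than in satellite glia, summed to 837 and 827 CPM in the satellite glia of the Sham libraries and to 910.1 and 910.4 in those of the CPIP libraries (15 of 15 markers present, none at 0), and their part in the change was not tested. In neurons Hspb1 measured 76.0 and 75.2 CPM in Sham and 85.2 and 138 in CPIP, a log2 change of 0.56 ± 0.219. In myelinating Schwann cells, with 6.49, 16.5, 22.1 and 25.1 CPM, it was 1.15 ± 0.465, and neuron markers there summed to 1957 and 2099 CPM in Sham and 2296 and 2430 in CPIP.

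The CPIP 2 library carried much of this pattern. Hspb1 was highest in CPIP 2 in 8 of 10 classes, and Hsp90aa1 was highest in Sham 2 in 8. The classes share their libraries, and the share of all genes with such a pattern was not counted. Without CPIP 2 the log2 change of Hspb1 was 0.58 in satellite glia, 0.18 in neurons and 0.11 in the glia led by Hey2 and Sox10. It was -0.28 in endothelial cells (0.32 with all 4 libraries) and 1.07 in myelinating Schwann cells. Without CPIP 1, which leaves CPIP 2 to stand for its group and assumes that it varies like the Sham pools, Hspb1 passed the threshold of edgeR's quasi-likelihood test with Benjamini-Hochberg adjustment in satellite glia (log2 1.10, adjusted p 0.0112), neurons (0.87, 4.96e-05), the glia led by Hey2 and Sox10 (0.89, 0.00675) and non-myelinating Schwann cells (0.82, 0.0178). The same fits called 3.07%, 6.08%, 4.15% and 1.27% of all genes in these 4 classes. Over the 4 fits that each left out 1 library, the adjusted p of that test in neurons ranged from 4.96e-05 to 1.00, and over the other settings from 0.916 to 1.00. Red blood cell markers summed to 116 CPM in the neurons of CPIP 2 and to 1.39 to 24.5 in those of the other libraries, and their part in the values of this library was not tested.

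Among neuron sub-clusters Hspb1 was highest in CPIP 1 in 8 and in CPIP 2 in 6, and in no sub-cluster in a Sham library. The sub-clusters come from the same 4 libraries and are not separate observations, and in that led by Mrgprx3 the Hspb1 median was 0 CPM. C low-threshold mechanoreceptors measured 86.6 and 82.7 CPM in Sham and 180 and 173 in CPIP, with no overlap. The peptidergic nociceptors led by Gnb2 measured 226 and 267 CPM in Sham and 738 and 294 in CPIP, where CPIP 1 held 25 cells. These values were not tested, since sub-clusters were only described, and the share of all genes with such patterns was not counted. A sub-cluster led by Vip held 18 cells in CPIP 1, 15 in CPIP 2 and none in the Sham libraries, and its Hspb1 level was 877 CPM in CPIP 1 and 1660 in CPIP 2, against 80.9 and 130 in the other neurons of those libraries. It gave 4.82% and 6.40% of their neuronal Hspb1 UMIs, and without it the log2 change in neurons was 0.49.

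**Figure D5:**
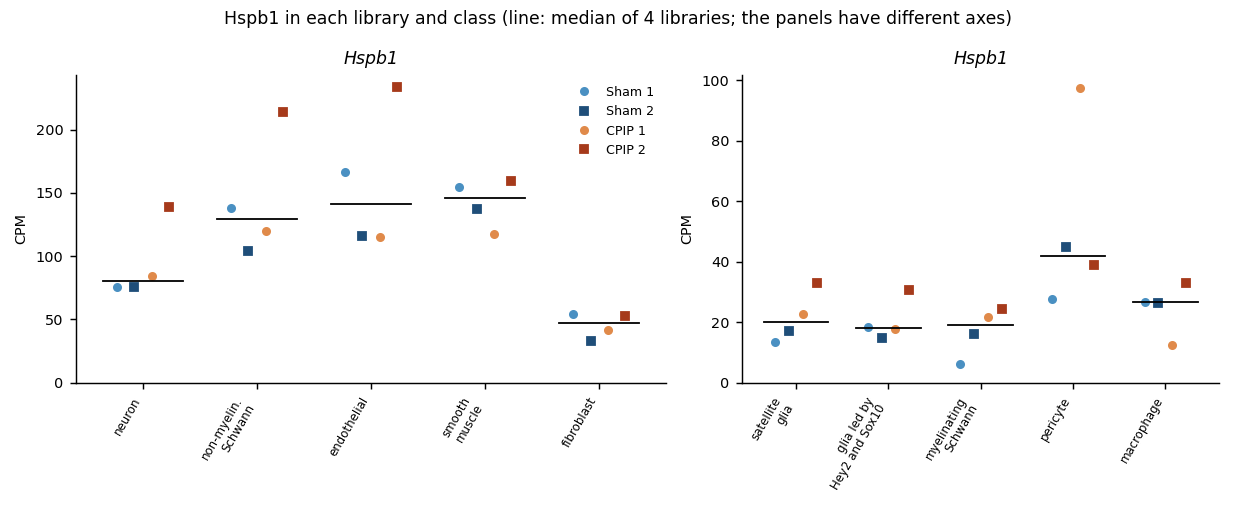
Hspb1 in CPM in the 10 cell classes, with 1 point per library, a line at the median of the 4, and 2 panels with different axes that start at 0. CPIP 2 is the highest library in 8 of the 10 classes.

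The other members with the smallest p-values are given by class. In satellite glia these were Dnaja4 (0.811 and 0.873 CPM in Sham, 1.42 and 1.14 in CPIP, log2 change 0.59 ± 0.295) and Ahsa1 (12.8, 13.9, 14.1 and 17.6 CPM, 0.25 ± 0.153). In neurons they were Cryab, with 10.7 and 16.3 CPM in Sham and 19.8 and 19.7 in CPIP (0.55 ± 0.209), and Hspd1, with 119, 130, 122 and 100.2 CPM (-0.16 ± 0.117). Cryab did not overlap between the groups and Hspd1 did. The adjusted p was 0.975 in satellite glia and 0.965 in neurons for each of these by edgeR's quasi-likelihood test with Benjamini-Hochberg adjustment. Immediate early genes in neurons summed to 1652 and 1799 CPM in Sham and 1882 and 2055 in CPIP, and their part in the values of neurons was not tested.

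In the glia led by Hey2 and Sox10, Hsp90b1 measured 824 and 880 CPM in Sham and 972 and 976 in CPIP (log2 change 0.19 ± 0.0759), and Hspa13 349, 359, 320 and 312 (-0.16 ± 0.0811), neither with overlap. Hspb1 there measured 18.4, 15.1, 18.0 and 31.0 CPM (0.56 ± 0.288) and overlapped. In endothelial cells Chordc1 measured 32.9 and 34.2 CPM in Sham and 46.0 and 44.7 in CPIP (0.43 ± 0.145). Hspa8 measured 748, 743, 865 and 831 CPM there (0.19 ± 0.0922) and Hspa1b 1711, 1789, 2377 and 1824 (0.26 ± 0.132), both without overlap. The adjusted p was 0.993 in these glia and 0.988 in endothelial cells for all of these by edgeR's quasi-likelihood test with Benjamini-Hochberg adjustment. Without CPIP 1 the same test called Hspa5 (0.39, adjusted p 0.00474) and Hspa1b (-0.40, 0.0312) in the glia led by Hey2 and Sox10, and Stip1 in neurons (-0.34, 0.0431), where those fits called 4.15% and 6.08% of all genes.

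In myelinating Schwann cells Hspa1b, with 1240 and 1199 CPM in Sham and 1689 and 1524 in CPIP, had a log2 change of 0.40 ± 0.100 and no overlap. Its adjusted p was 0.671 by edgeR's quasi-likelihood test with Benjamini-Hochberg adjustment. The adjusted p of the same test was 0.0489 without CPIP 2 (log2 0.47), 0.0323 with no filter on low counts (0.41) and 0.0297 in a fit with crossed replicate numbers (0.39), and it ranged up to 1.00 over the alternatives. Without CPIP 2 the fit called 0.164% of all genes. Bag3 there measured 190 and 218 CPM in Sham and 262 and 254 in CPIP (0.35 ± 0.149). Immediate early genes summed to 14368 and 14618 CPM in the Sham and 15489 and 15234 in the CPIP libraries of this class, and their part in these changes was not tested.

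In non-myelinating Schwann cells Dnajb1 measured 120 and 124 CPM in Sham and 144 and 180 in CPIP (log2 change 0.40 ± 0.183), and Hspa8 502, 573, 637 and 685 (0.30 ± 0.137), neither with overlap. Hspb1, with 141, 108, 124 and 219 CPM (0.45 ± 0.242), overlapped, and its change without CPIP 2 was near 0. In macrophages Bag3 measured 282 and 237 CPM in Sham and 345 and 353 in CPIP (0.42 ± 0.186). Hspe1 measured 216, 222, 181 and 146 CPM (-0.43 ± 0.208) and Chordc1 37.6, 45.0, 53.7 and 66.3 (0.56 ± 0.312), and the groups overlapped for none of the 3. The adjusted p was 0.960 in non-myelinating Schwann cells and 1.00 in macrophages by edgeR's quasi-likelihood test with Benjamini-Hochberg adjustment.

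The difference of the CPIP change between neurons and satellite glia was tested as an interaction with library as a block, and no member was called (0.0280% of 14292 genes were). The smallest p among members belonged to Cryab (0.42 ± 0.144, adjusted p 0.520), Hspb1 (-0.33 ± 0.133, 0.717) and Dnaja4 (-0.67 ± 0.373, 0.893) in edgeR's quasi-likelihood test with Benjamini-Hochberg adjustment. Without CPIP 1 that test gave Cryab an adjusted p of 0.0467 (0.65) and called 1.01% of all genes.

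Other genes of chaperone pathways, 93 in 7 lists of further Hsp70 and J-domain proteins, small heat shock proteins, co-chaperones, heat shock factors and their targets, the TRiC chaperonin and the unfolded protein response, gave no call in any class. Between 63 and 86 of them were tested per class. Both CPIP libraries lay above both Sham libraries for 13 and below for 10 of 84 tested in satellite glia. The counts were 11 and 15 of 86 in neurons and 11 and 12 of 79 in the glia led by Hey2 and Sox10. They were 15 and 9 of 83 in endothelial cells and 10 and 5 of 68 in non-myelinating Schwann cells. Myelinating Schwann cells had 8 and 6 of 69, and macrophages 11 and 13 of 63. Of all tested genes, 14.7% to 17.5% lay so in either direction in a single class. Ddit3, which encodes the stress transcription factor CHOP, had 1 of the 2 smallest p-values of the lists in satellite glia (log2 change 0.38 ± 0.125), neurons (0.57 ± 0.213) and macrophages (0.93 ± 0.302). Sdf2l1, a chaperone partner in the endoplasmic reticulum, was so placed in neurons (0.34 ± 0.103) and the glia led by Hey2 and Sox10 (0.49 ± 0.194).

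P4hb, a protein disulphide isomerase, was so placed in non-myelinating Schwann cells (0.71 ± 0.304), myelinating Schwann cells (0.65 ± 0.285) and macrophages (0.96 ± 0.331). Its CPM was 451, 382 and 717 in CPIP 2 of these classes and 178, 144 and 301 in CPIP 1, so CPIP 2 was the high library. Other genes of this rule were Hspa12a in satellite glia (0.29 ± 0.0771), Fkbp5 (1.34 ± 0.302) and Dnajc19 (-0.29 ± 0.122) in endothelial cells, Pfdn1 in non-myelinating Schwann cells (0.83 ± 0.222) and Hmox1 in myelinating Schwann cells (0.82 ± 0.245). Fkbp5, an immunophilin induced by glucocorticoids, measured 6.13 and 6.18 CPM in Sham and 12.9 and 18.4 in CPIP. None of these genes passed the threshold of the test.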

How the data were processed

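The authors deposited, for each of the 4 libraries, UMI counts as whole numbers without normalization, per the file headers. Aligner, annotation, build and cell calling: not given in the sources used here. Cells with at least 200 genes and at most 25% mitochondrial UMIs were kept. Scrublet in scanpy 1.11.5 marked under 0.5% of cells in 3 libraries and was taken to have failed there, so the 5% of cells with the highest scores were removed. Cells were clustered with the Leiden method (resolution 1.0, neurons again at 0.5) on 2000 variable genes without the members, the pathway lists or immediate early genes, and named from marker lists. The naming margin of 0.1, the detection minimum of 10% and the rule for clusters of low depth were chosen with the clusters in view, and clusters of low depth were not described. For each class the UMI counts of a library were added up and tested with edgeR 4.0.16 in R 4.3.3 (TMM, default low-count filter, Benjamini-Hochberg, threshold 0.05), with DESeq2 1.42.0 as an alternative. The labels give separate pools as replicates, and p-values measure the spread between those pools. The scripts were tested on simulated data. All members were described by level, and statistics were printed for the 3 members with the smallest p in each class and for the 2 pathway genes with the smallest p. The members and lists were chosen with earlier results of these data known. Alternatives were normalization, low-count and cell filters, doublets, cluster resolution, clustering genes, thinning, the replicate block and leaving out each library. Joining the unnamed glia to satellite glia, the crossed pairing and leaving out the sub-cluster led by Vip were added after seeing the data. A few results that the rules above select are not reported here.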

Additional observations from a re-analysis of the deposited data

Results flagged for a closer look

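For 8 members both CPIP libraries lay above both Sham libraries in 1 class and below them in another. The share of all genes with both such classes was not counted, so the 8 have no background to be read against. Each difference of the 2 log2 changes is given, none was tested, and 14.7% to 17.5% of genes lay so in either direction in a single class. Dnajb4 had the widest, 1.52 between macrophages (0.73 ± 0.470, SE) and myelinating Schwann cells (-0.79 ± 0.402), and its level is low in both. The difference was 0.56 for Dnajb1 between non-myelinating Schwann cells and endothelial cells (-0.16 ± 0.117), and 0.56 for Hspe1 between myelinating Schwann cells (0.13 ± 0.160) and macrophages. It was 0.34 for Hsph1 between myelinating Schwann cells (0.30 ± 0.128) and neurons (-0.04 ± 0.0687), 0.32 for Dnaja2 between myelinating Schwann cells and endothelial cells, and 0.31 for Hspa4 between non-myelinating Schwann cells and macrophages. It was 0.22 for Hsp90ab1 between macrophages and myelinating Schwann cells, and 0.22 for Dnaja1 between endothelial cells and the glia led by Hey2 and Sox10.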

How the results depend on the processing

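Of 303 values of 21 single members under other settings, 294 kept their direction and side of the threshold, 7 passed it and 2 changed sign: Hspa13 in the glia led by Hey2 and Sox10 (0.00185 with at most 15% mitochondrial UMIs) and Hspb1 in non-myelinating Schwann cells (-0.00164 to 0.818 with 1 library left out). The cause of these shifts was not tested. Members called ranged, with 1 library left out, from 0 to 1 in satellite glia, 0 to 2 in neurons, 0 to 3 in the glia led by Hey2 and Sox10, 0 to 1 in either Schwann class and 0 to 1 for the interaction, and 1 member was called in myelinating Schwann cells with no low-count filter. Member medians then ranged from 0.0291 to 0.0952 in satellite glia, -0.00315 to 0.0544 in neurons, -0.0226 to 0.118 in the glia led by Hey2 and Sox10, 0.0552 to 0.101 in endothelial cells, -0.00264 to 0.275 and -0.0215 to 0.104 in non-myelinating and myelinating Schwann cells and -0.0693 to 0.117 in macrophages. All genes called ranged from 0 to 404 in satellite glia, 0 to 853 in neurons, 0 to 427 in those other glia, 4 to 23 in endothelial cells, 14 to 97 and 0 to 94 in the Schwann classes, 17 to 94 in macrophages and 5 to 148 for the interaction.

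The main fit called 0, 1, 0, 1, 1, 1 and 2 genes in satellite glia, neurons, the glia led by Hey2 and Sox10, endothelial cells, non-myelinating and myelinating Schwann cells and macrophages, and 4 for the interaction. DESeq2 called 7, 12, 1, 2, 0, 0 and 1 in that order and 40 for the interaction, and its size factors in edgeR gave 0 for the interaction. With no low-count filter the counts were 1 in satellite glia and in the glia led by Hey2 and Sox10, 0 in endothelial cells, 44 and 29 in non-myelinating and myelinating Schwann cells, 41 in macrophages and 122 for the interaction. Keeping doublets gave 0 in neurons, 2 and 0 in the Schwann classes, 4 in macrophages and 0 for the interaction. Non-myelinating Schwann cells had 2 at resolution 2.0, 2 with at most 15% mitochondrial UMIs and 0 with at least 1000 UMIs, and myelinating ones had 0 under both filters. Neurons had 0 with at least 1000 UMIs, with members among the clustering genes (7 for the interaction) and without the sub-cluster led by Vip. Joining the unnamed glia to satellite glia gave 0 for the interaction. Deviations from the group means had correlations of -0.15 to -0.04 between libraries with the same replicate number. So few libraries cannot decide whether the number marks anything shared. The replicate block gave 0 in endothelial cells, 2 in non-myelinating and 13 in myelinating Schwann cells. The crossed pairing, as a block, gave 1 in satellite glia, 2 in neurons, 1 in the glia led by Hey2 and Sox10, 6 in endothelial cells, 50 in non-myelinating and 33 in myelinating Schwann cells, 1 of them a member.

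Level ratios kept their direction. With TMM over all classes the log2 ratio of Hspa1b was 4.02 (macrophages over neurons) and 1.47 (non-myelinating Schwann cells over satellite glia), Hsp90aa1 1.26, Hsph1 1.30, Fkbp4 2.05, Hspb8 4.20, Hspa5 1.75, Hspa13 2.13 and Bag3 1.36. Without mitochondrial genes Hsp90aa1 was 1.43, Fkbp4 2.23, Hspb8 4.38, Hspa13 1.96 and Bag3 1.78. With doublets kept Hspa1b over satellite glia was 1.58, Hsp90aa1 1.47, Fkbp4 2.25, Hspb8 4.13, Hspa13 1.82, Cryab 6.16 and Bag3 1.44. As a mean over cells Hspa1b was 5.18 and 1.99, Hsp90aa1 1.62 and Bag3 1.56. Hspa1b was 4.18 in macrophages with at least 1000 UMIs and 1.84 over satellite glia at resolution 2.0, and with at most 15% mitochondrial UMIs Hspa13 was 1.90 and Bag3 1.78. The Hspb1 ratio of neurons led by Kcnv1 over Iapp was not run under re-clustering or TMM. Thinning to 2000 UMIs gave mean shares of 89.5% for Cryab in myelinating Schwann cells and 13.8%, 30.4% and 25.6% for Hspb1, Hspa1b and Hspb8 in neurons, and no thinning 83.0%, 33.0%, 61.2% and 59.4%. The planned comparison of protein sequences was not run.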
